A study of Mus musculus with 15 samples.

Results

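The genes described here are 39 transcripts of T cells and cytotoxic lymphocytes, chosen by name: the CD3 chains and coreceptors of the T cell receptor, proximal signalling molecules, costimulatory and inhibitory receptors, lineage transcription factors, chemokine receptors, granzymes, perforin and receptors of natural killer (NK) cells. Of these, 38 were found among the 24891 genes of the expression table, and TRAC, the constant chain of the alpha T cell receptor, was not analysed here. They were read in 15 RNA-seq libraries of subcutaneous tumors, 3 in each of 5 groups. All tumors grew from Tsc2-/- 105K cells, a mouse renal tumor line whose loss of Tsc2 leaves mTORC1 active, in wild-type C57BL/6J hosts, which the study's methods give as young males that received the cells with matrigel. Bulk tumors carried sh-NC, a non-targeting shRNA, or sh-B7-H3 (1), an shRNA against B7-H3 (gene Cd276), a membrane protein of the B7 family that can restrain lymphocytes. Sorted tumor cells, those left by magnetic depletion of other cells, came from tumors with sh-NC, with sh-B7-H3 (1), and with sh-B7-H3 (2), a further shRNA against the same gene. The shRNA lines were puromycin-selected heterogeneous pools and not single clones. Bulk tumors with sh-B7-H3 (2) are not among these libraries, so every bulk comparison rests on 1 shRNA.

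T cells recognise peptides on MHC molecules through the T cell receptor, whose signal passes into the cell through the CD3 chains and the kinases LCK and ZAP70. The coreceptors CD8 and CD4 bind MHC-I and MHC-II, respectively, and divide T cells into mainly cytotoxic and mainly helper or regulatory lineages. Cytotoxic T cells and NK cells kill by releasing perforin and granzymes onto a target, and long antigen exposure raises inhibitory receptors such as PD-1 (PDCD1) and CTLA4. In a bulk tumor these transcripts come from a minority of cells, and fewer cells of a type cannot be told apart from less RNA per cell.

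Values are FPKM, a read count scaled to transcript length and library size, divided by a median-ratio factor per library (scaled FPKM). A p-value here measures the spread between the sequenced samples, which the study's methods call biological samples. The depth of the libraries was known only as a ratio, from 0.468 to 1 of the deepest, and 1 short RNA, MIR6236, held from 6.01% to 79.7% of a library's summed FPKM. CD276, the target, was 22.6 ± 1.53 (SD, n = 3) in bulk sh-NC and 21.6 ± 3.38 (SD, n = 3) in the bulk libraries labelled sh-B7-H3 (1), so in bulk it did not separate the labels. In sorted cells it was 17.3 to 34.1 with sh-NC, 7.32 to 14.0 in the libraries labelled sh-B7-H3 (1) and 23.4 to 25.8 in those labelled sh-B7-H3 (2). The library sorted sh-B7-H3 (2) replicate 1 stood apart: 10 leukocyte markers summed to 228 scaled FPKM there, against 3.38 to 8.65 in the 8 other sorted libraries and 189 to 399 in the bulk tumors. Results for its group are given with and without that library.

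T cell and cytotoxic lymphocyte transcripts were at higher levels in bulk tumors with sh-B7-H3 (1) than with sh-NC for most of the genes. The 38 genes summed to 14.8, 15.7 and 16.1 scaled FPKM in the sh-NC tumors and to 56.6, 63.4 and 20.7 in the sh-B7-H3 (1) tumors. In 25 of the 38 genes all 3 sh-B7-H3 (1) tumors lay above all 3 sh-NC tumors, in 13 the groups overlapped, and in 0 did the sh-B7-H3 (1) tumors lie below. Over the 18277 genes listed above 0 in a bulk library, 21.6% had all 3 sh-B7-H3 (1) tumors above. The group means were higher with sh-B7-H3 (1) for 37 genes, IL7R being the exception. The levels were uneven between tumors: sh-B7-H3 (1) replicate 3 was the lowest of its group in 37 genes, and replicates 1 and 2 were the highest in 14 and 24. Replicate 3 was also the shallowest of the 15 libraries, at 0.468 of the deepest. MIR6236 held 17.2%, 74.4% and 19.8% of summed FPKM in sh-B7-H3 (1) replicates 1 to 3, and 30.0%, 41.6% and 79.7% with sh-NC. The part of depth and of MIR6236 in the uneven levels was not tested.

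**Figure D1:**
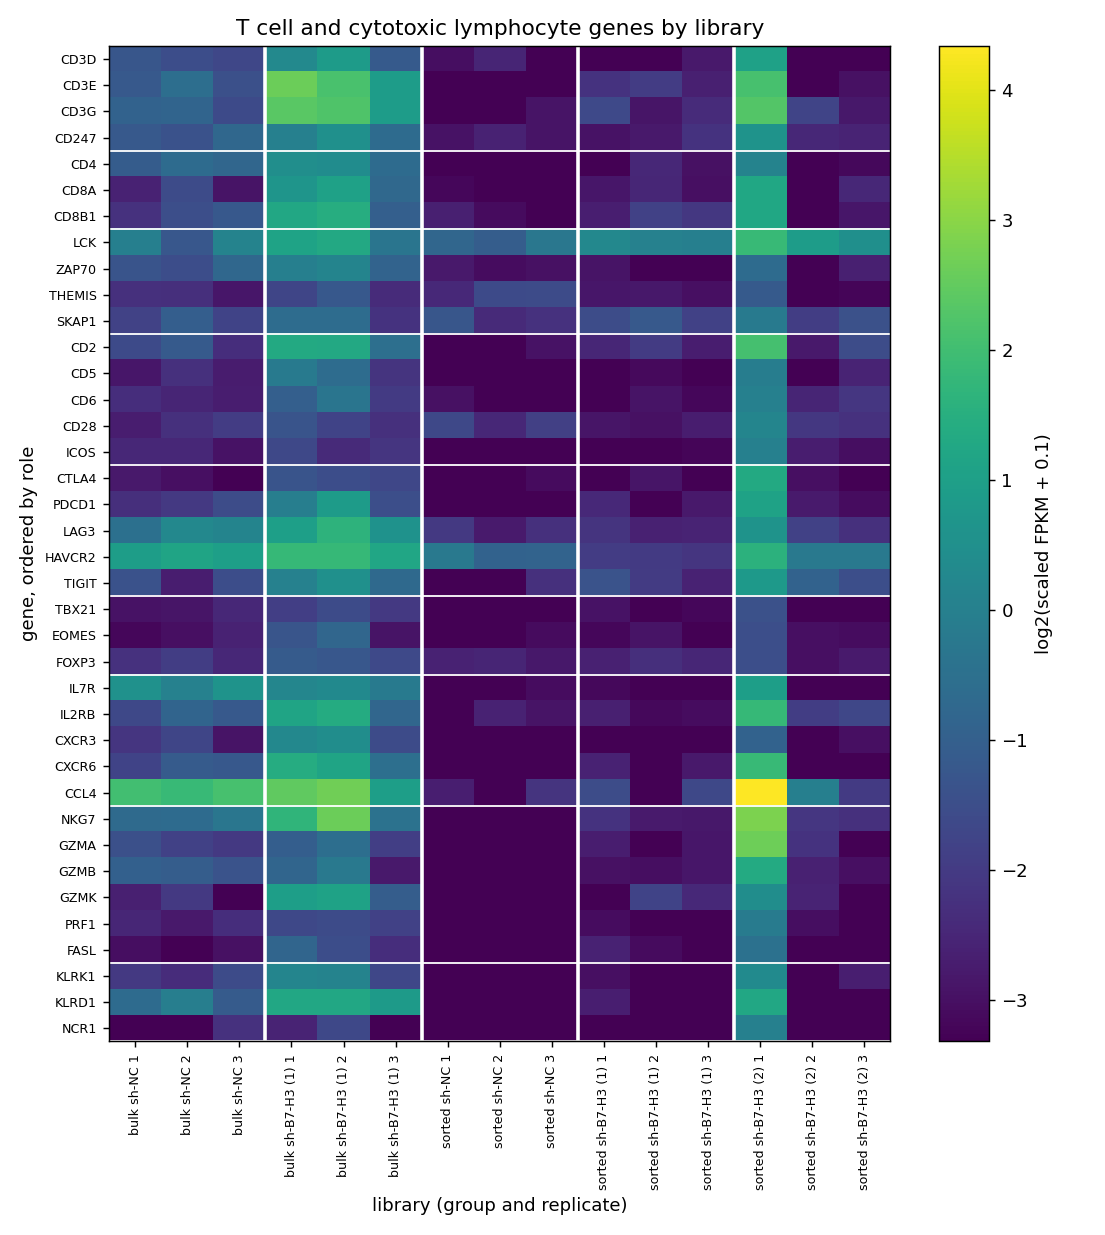
Level of each of the 38 genes (rows, ordered by role) in each of the 15 libraries (columns), coloured by log2(scaled FPKM + 0.1). The first 2 bulk sh-B7-H3 (1) columns and sorted sh-B7-H3 (2) replicate 1 are bright through most rows. The other sorted columns are mostly dark apart from LCK, in some HAVCR2, and in sh-B7-H3 (2) replicate 2 CCL4.

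These are low levels. With sh-NC, 3 of the 38 genes averaged 1 scaled FPKM or more, and with sh-B7-H3 (1), 16 did. The main test, limma on log2(scaled FPKM + 1), required a minimum of 1 scaled FPKM in at least 3 of the 6 bulk libraries, and 7 of the 38 passed. Of the 7, CD3E, CD3G and KLRD1 rose, with an adjusted p below 0.05, whereas 12.8% of the 11804 genes tested were called higher. These 3 reached the minimum only through the sh-B7-H3 (1) tumors, so a gene of this kind had to differ to be tested at all, and their count is no support by itself. LAG3, HAVCR2, CCL4 and IL7R did not pass the threshold. A fit with no minimum and a pseudocount of 0.1, chosen after the low levels were seen, took all 38 genes. There 8 rose, CD3E, CD3G, CD8A, CTLA4, TBX21, GZMK, PRF1 and KLRD1, against 7.57% of 18277 genes called higher. Fold changes were above 0 for 36 of the 38 in that fit, with a median log2 change of 1.33 against 0.05 over all genes, and 27 had an unadjusted p below 0.05, as did 31.8% of all genes. With no minimum and a pseudocount of 1, 7 rose, the same genes without CD8A (adjusted p = 0.0608) and GZMK (adjusted p = 0.0749) and with FOXP3 (adjusted p = 0.0482), so the calls of these 3 turn on the pseudocount.

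**Figure D2:**
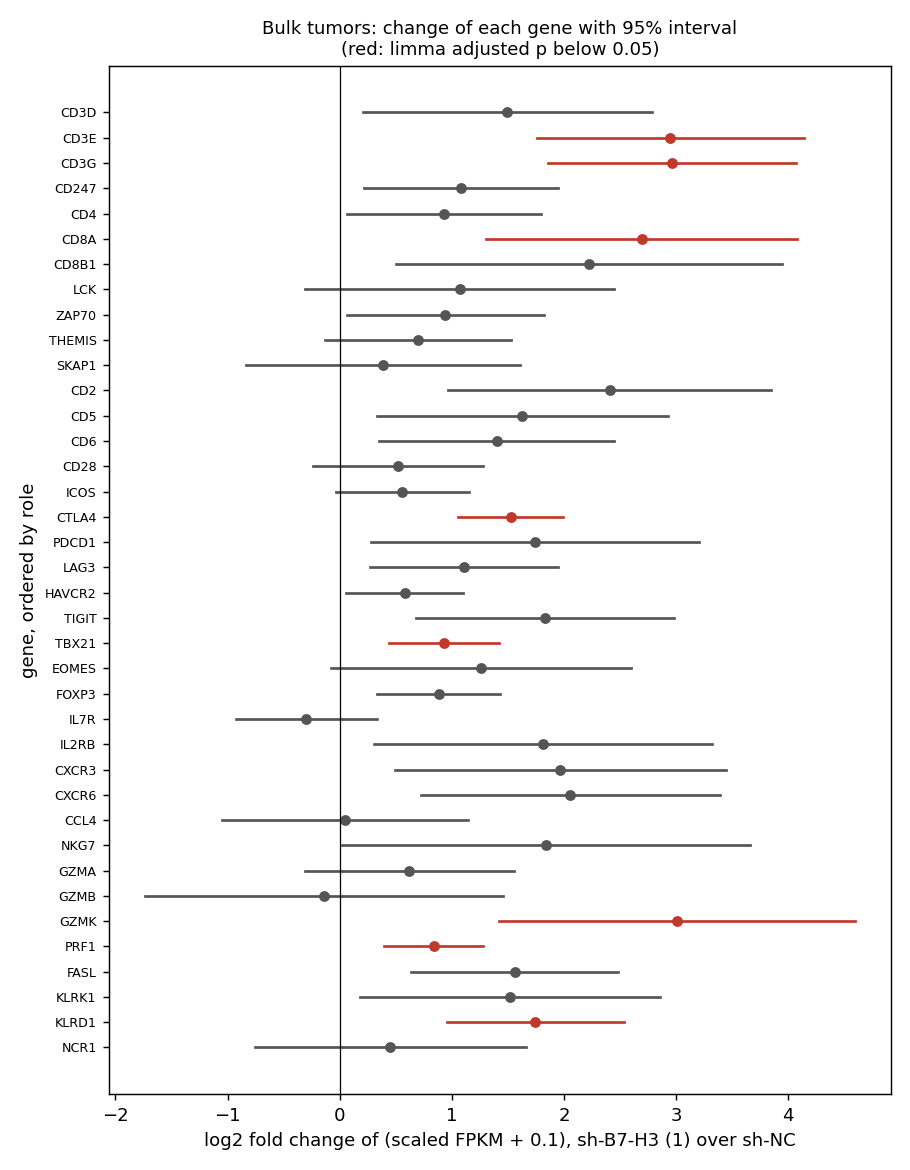
Log2 fold change of (scaled FPKM + 0.1) in bulk tumors, sh-B7-H3 (1) over sh-NC, for the 38 genes in order of role, with 95% intervals from limma (n = 3 per group) and red for an adjusted p below 0.05. All points but those of IL7R and GZMB lie right of 0, and the largest are GZMK at 3.01, CD3G at 2.96 and CD3E at 2.95.

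The CD3 chains carry the signal of the T cell receptor into the cell and define T cells. CD3E was 0.341, 0.586 and 0.262 scaled FPKM in the sh-NC tumors and 6.01, 4.27 and 1.79 in the sh-B7-H3 (1) tumors. CD3G was 0.435, 0.449 and 0.230 with sh-NC and 5.14, 4.57 and 1.78 with sh-B7-H3 (1). In both genes the lowest sh-B7-H3 (1) tumor was well above the highest sh-NC tumor, and the means differed 10.2-fold and 10.3-fold. On the log2(value + 1) scale, which understates the change of low genes, CD3E rose by 1.75 (standard error 0.32, limma adjusted p = 0.0133) and CD3G by 1.74 (standard error 0.29, limma adjusted p = 0.0104). From the spacing of its values, with the smallest step taken as 1 read, CD3E rested on 12, 18 and 7 reads with sh-NC and on 172, 136 and 40 with sh-B7-H3 (1). CD3D, a further chain of the same complex, was 0.209 to 0.316 with sh-NC and 1.13, 1.75 and 0.348 with sh-B7-H3 (1), and CD247, the zeta chain, was 0.283 to 0.487 and 0.541 to 1.34. The groups did not overlap in any of these 4 genes, and in the fit without a minimum the adjusted p was 0.116 for CD3D and 0.0995 for CD247.

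Cd3g, Cd3d and Cd3e lie side by side within 40.1 kb of chromosome 9, chr9:44969572-45009663 in GRCm38, the build the submitters' processing notes name as mm10. Upstream sequence from RefSeq is shown for Cd3g and Cd3e, which both rose and have Cd3d, which did not pass, between them. It is also shown for the granzyme genes Gzmk and Gzmb, of which Gzmk rose without the minimum and Gzmb did not pass. The windows end at the annotated start of the gene and are read 5′ to 3′ on the minus strand, chr9:44980432-44980681 for Cd3g, chr9:45009664-45009861 for Cd3e, chr13:113180966-113181215 for Gzmk and chr14:56262335-56262584 for Gzmb. Capitals mark matches on either strand to TGTGGT, the core letters of RUNX factors, AGGAAG, letters of an ETS site, and AGGTGT, the core of a T-box site such as those of TBX21 and EOMES. Matches of different motifs may share bases.
Cd3g: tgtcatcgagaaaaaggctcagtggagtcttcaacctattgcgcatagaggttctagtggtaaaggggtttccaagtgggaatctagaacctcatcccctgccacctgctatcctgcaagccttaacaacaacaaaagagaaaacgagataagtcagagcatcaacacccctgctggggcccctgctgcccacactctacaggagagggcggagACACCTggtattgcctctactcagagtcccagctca
Cd3e: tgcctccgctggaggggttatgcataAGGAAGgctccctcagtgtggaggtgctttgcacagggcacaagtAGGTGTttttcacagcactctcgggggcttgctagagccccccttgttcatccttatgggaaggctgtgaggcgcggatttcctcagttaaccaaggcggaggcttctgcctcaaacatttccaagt
Gzmk: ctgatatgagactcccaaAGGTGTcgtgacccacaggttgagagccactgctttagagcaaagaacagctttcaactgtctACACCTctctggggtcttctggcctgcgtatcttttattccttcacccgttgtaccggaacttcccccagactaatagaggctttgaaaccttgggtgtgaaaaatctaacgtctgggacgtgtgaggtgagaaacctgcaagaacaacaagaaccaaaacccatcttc
Gzmb: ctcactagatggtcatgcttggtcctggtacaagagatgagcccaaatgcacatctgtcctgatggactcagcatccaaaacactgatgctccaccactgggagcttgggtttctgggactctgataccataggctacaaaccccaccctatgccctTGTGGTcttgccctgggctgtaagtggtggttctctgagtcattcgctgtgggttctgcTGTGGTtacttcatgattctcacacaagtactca
The Gzmk window holds 2 T-box matches and no RUNX match, and the Gzmb window holds 2 RUNX matches and no T-box match. Cd3e has 1 ETS and 1 T-box match, and Cd3g has 1 T-box match. Promoter windows from 250 bases before to 50 after a start were found for 27 of the listed genes, and 13 of these had a RUNX match (48.1%, against 18.9% of 27025 genes), 16 an ETS match (59.3%, against 38.4%) and 9 a T-box match (33.3%, against 15.7%). A match to so few letters is a description of the window and not a bound site.

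The coreceptors were higher in the same tumors. CD8A was 0.0675, 0.237 and 0.0324 scaled FPKM with sh-NC and 1.51, 1.98 and 0.503 with sh-B7-H3 (1). CD8B1, the other chain of the CD8 heterodimer, was 0.112, 0.255 and 0.331 with sh-NC and 2.33, 2.62 and 0.395 with sh-B7-H3 (1). CD4 was 0.370, 0.537 and 0.472 with sh-NC and 1.29, 1.23 and 0.544 with sh-B7-H3 (1). The groups did not overlap in any of the 3 genes, though for CD4 and CD8B1 the third sh-B7-H3 (1) tumor sat just above the sh-NC range. The fold of the means was 11.9 for CD8A, 7.66 for CD8B1 and 2.22 for CD4. Without the minimum, CD8A rose by 2.69 on the log2(value + 0.1) scale (standard error 0.57, limma adjusted p = 0.0373), while CD8B1 (adjusted p = 0.0925) and CD4 (adjusted p = 0.135) did not pass. Cd8b1 and Cd8a are neighbours within 56.4 kb of chromosome 6 (chr6:71322788-71379171, GRCm38), and Cd4 lies on the same chromosome beside Lag3 (chr6:124864693-124912434). CD4 is not confined to T cells, since some macrophages and dendritic cells carry it.

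**Figure D3:**
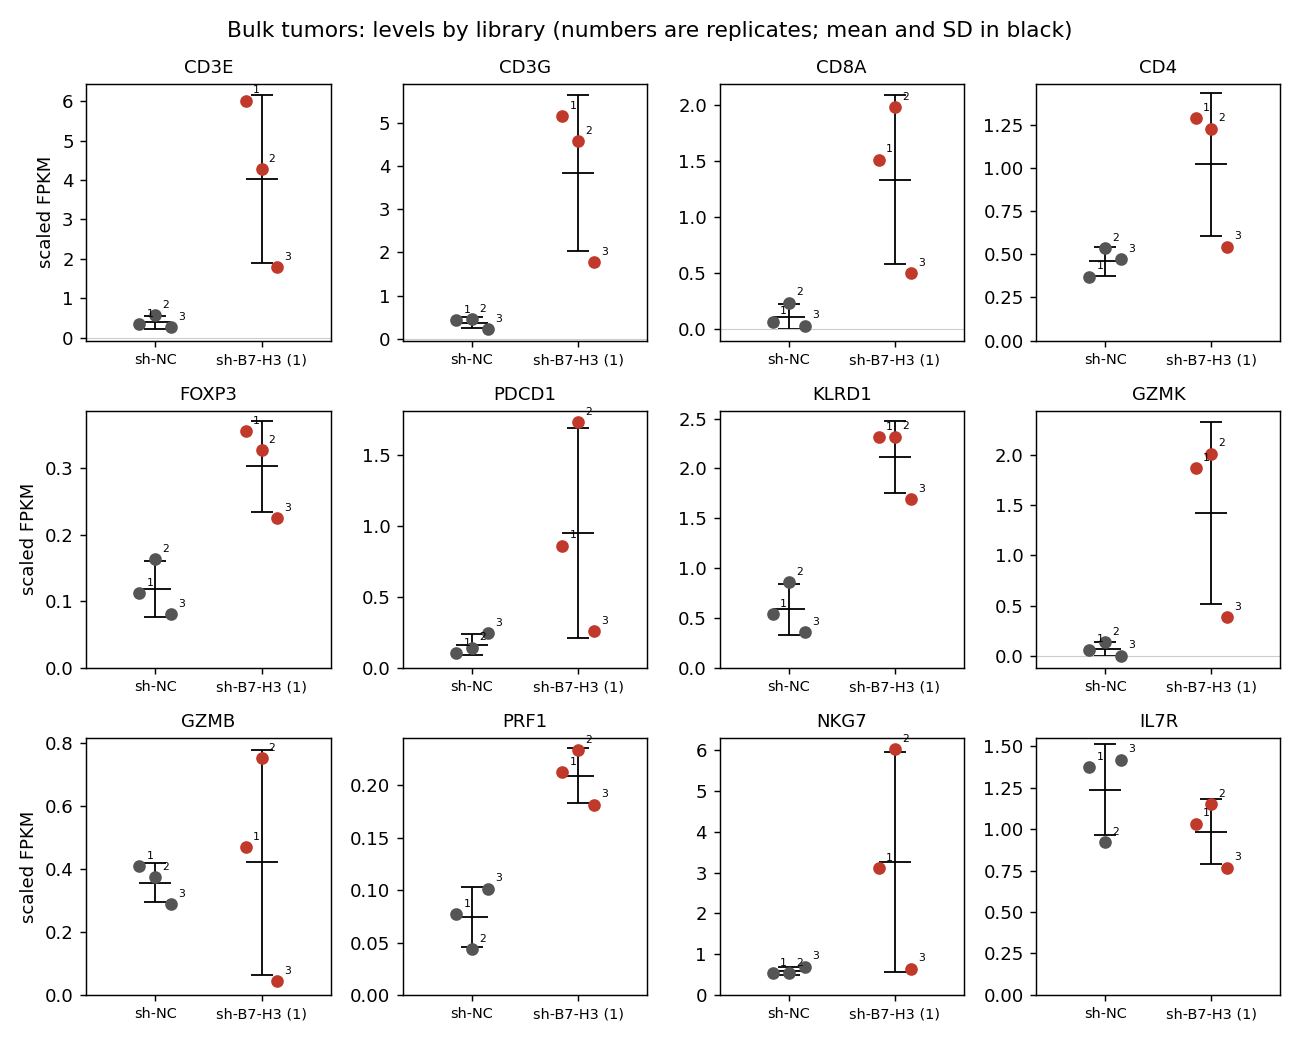
Scaled FPKM of 12 genes in the 3 sh-NC (grey) and 3 sh-B7-H3 (1) (red) bulk tumors, each panel on its own scale from 0, with replicate numbers beside the points and the mean ± SD in black. The groups do not overlap for CD3E, CD3G, CD8A, CD4, FOXP3, PDCD1, KLRD1, GZMK and PRF1, and they overlap for GZMB, NKG7 and IL7R.

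All 5 adhesion and costimulatory receptors had positive fold changes, and 4 of them, CD2, CD5, CD6 and ICOS, did not overlap. CD2, which binds CD48 on neighbouring cells, was 0.10 to 0.347 with sh-NC and 2.43, 2.39 and 0.597 with sh-B7-H3 (1), an 8.02-fold difference of means (limma adjusted p = 0.0518 without the minimum). CD5 and CD6, scavenger-type receptors that tune the T cell receptor signal, were 0.0382 to 0.109 and 0.0518 to 0.101 with sh-NC and 0.120 to 0.798 and 0.144 to 0.691 with sh-B7-H3 (1). ICOS, a relative of CD28 on activated T cells, was 0.0307 to 0.0816 and 0.0902 to 0.215, and its highest sh-NC and lowest sh-B7-H3 (1) tumors were nearly level. CD28, the receptor of the main costimulatory signal, overlapped, at 0.0519 to 0.160 with sh-NC and 0.298, 0.191 and 0.109 with sh-B7-H3 (1). Of the proximal signalling genes LCK, ZAP70, THEMIS and SKAP1, all 4 overlapped between the groups, each through the third sh-B7-H3 (1) tumor. LCK, the kinase that starts T cell receptor signalling, was 0.894, 0.327 and 0.978 with sh-NC and 2.08, 2.36 and 0.689 with sh-B7-H3 (1). LCK was also present in every sorted library, at 0.381 scaled FPKM or more. ZAP70, the kinase that LCK activates, was 0.250 to 0.494 with sh-NC and 0.884, 1.00 and 0.442 with sh-B7-H3 (1). THEMIS, which acts in T cell selection, was 0.0384 to 0.109 and 0.0916 to 0.332, and the adaptor SKAP1 was 0.184 to 0.392 and 0.116 to 0.559.

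All 5 inhibitory receptors had their 3 sh-B7-H3 (1) tumors above the sh-NC tumors. PDCD1, which encodes PD-1, was 0.103, 0.142 and 0.245 with sh-NC and 0.862, 1.73 and 0.260 with sh-B7-H3 (1), a 5.83-fold difference of means (log2 change without the minimum 1.74, standard error 0.60, limma adjusted p = 0.110). CTLA4, which competes with CD28 for its ligands, was 0.0440, 0.0252 and 0 with sh-NC and 0.297, 0.250 and 0.208 with sh-B7-H3 (1), and it rose by 1.52 (standard error 0.19, limma adjusted p = 0.0144). The spread within the sh-B7-H3 (1) tumors was small for CTLA4 and wide for PDCD1. TIGIT, a receptor of T and NK cells, was 0.0538 to 0.282 with sh-NC and 0.518 to 1.35 with sh-B7-H3 (1). LAG3 was 0.613 to 1.09 and 1.40 to 2.98, a log2 change of 0.68 in the main test (standard error 0.21, limma adjusted p = 0.0561). HAVCR2, which encodes TIM-3 and is also made by macrophages and dendritic cells, was 1.81 to 2.13 and 2.22 to 3.42, a change of 0.43 (standard error 0.15, limma adjusted p = 0.0805).

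Transcription factors of the cytotoxic, T helper 1 and regulatory lineages were near the floor of detection with sh-NC. FOXP3, which defines regulatory T cells, was 0.112, 0.163 and 0.0807 with sh-NC and 0.356, 0.327 and 0.225 with sh-B7-H3 (1), a 2.55-fold difference of means (log2 change without the minimum 0.88, standard error 0.23, limma adjusted p = 0.0570). TBX21, which encodes T-bet, was 0.0303 to 0.0799 with sh-NC and 0.143 to 0.234 with sh-B7-H3 (1) and rose by 0.93 (standard error 0.20, limma adjusted p = 0.0395), on 8 reads in all with sh-NC and 29 with sh-B7-H3 (1). EOMES, the T-box factor of memory and NK cells, reached 0.308 and 0.481 in the first 2 sh-B7-H3 (1) tumors and 0.0324 in the third, which lay inside the sh-NC range.

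Of the chemokine and cytokine receptors, CXCR3 and CXCR6, which guide effector T cells into tissue, and IL2RB, the beta chain of the IL-2 and IL-15 receptors, did not overlap. IL2RB was 0.214 to 0.458 with sh-NC and 2.14, 2.51 and 0.472 with sh-B7-H3 (1). CXCR6 was 0.190 to 0.362 and 2.59, 2.12 and 0.597. CXCR3 was 0.0334 to 0.203 and 1.09, 1.26 and 0.239. In each the first 2 sh-B7-H3 (1) tumors stood several times above the third. IL7R, the IL-7 receptor of naive and memory T cells, took the opposite sign, at 1.37, 0.921 and 1.42 with sh-NC and 1.03, 1.15 and 0.768 with sh-B7-H3 (1), a log2 change of -0.17 that did not pass the test (95% interval -0.51 to 0.17, limma adjusted p = 0.403). CCL4, a chemokine that both T cells and macrophages secrete, was 3.92, 3.50 and 4.24 with sh-NC and 5.40, 6.33 and 1.85 with sh-B7-H3 (1). Its change of 0.07 (95% interval -0.73 to 0.86, limma adjusted p = 0.898) left a difference of either sign possible.

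Of the 6 cytotoxic effectors, GZMK, PRF1 and FASL did not overlap between the groups, and NKG7, GZMA and GZMB did. GZMK, a granzyme of effector memory T cells, was 0.0607, 0.139 and 0 with sh-NC and 1.87, 2.01 and 0.382 with sh-B7-H3 (1), which were 3 reads in all against 59. Its fitted change was 3.01 on the log2(value + 0.1) scale (standard error 0.65, limma adjusted p = 0.0389), the largest of the 38 genes at that pseudocount. With a pseudocount of 1 it was 1.10 (adjusted p = 0.0749), below CD3E, CD3G, NKG7 and CD2. GZMB, the granzyme of fully armed killer cells, was 0.408, 0.374 and 0.287 with sh-NC and 0.469, 0.752 and 0.0428 with sh-B7-H3 (1), which were 35 reads against 40. Of the sh-B7-H3 (1) tumors, 2 were thus above the sh-NC tumors and 1 was below, and the change of -0.14 had a 95% interval from -1.74 to 1.45 (limma adjusted p = 0.901). GZMA, which is common in NK and CD8 T cells, also overlapped, at 0.139 to 0.264 and 0.389, 0.583 and 0.166. Gzma and Gzmk share 87.1 kb of chromosome 13 (chr13:113093824-113180965, GRCm38), and Gzmb lies on chromosome 14.

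PRF1, the pore-forming perforin, was 0.0769, 0.0440 and 0.101 with sh-NC and 0.213, 0.234 and 0.182 with sh-B7-H3 (1), on 10 reads in all against 26. It rose by 0.84 without the minimum (standard error 0.18, limma adjusted p = 0.0388). NKG7, a protein of cytotoxic granules, was 0.528, 0.537 and 0.696 with sh-NC and 3.10, 6.03 and 0.646 with sh-B7-H3 (1), so that the third tumor lay within the sh-NC range. FASL, the death receptor ligand, was at most 0.0279 with sh-NC and 0.468, 0.250 and 0.0998 with sh-B7-H3 (1) (limma adjusted p = 0.0510).

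KLRD1, or CD94, a receptor subunit of NK cells and activated CD8 T cells, was 0.538, 0.863 and 0.355 with sh-NC and 2.32, 2.32 and 1.69 with sh-B7-H3 (1). All 3 sh-B7-H3 (1) tumors were close together, and KLRD1 rose by 0.98 on the log2(value + 1) scale (standard error 0.16, limma adjusted p = 0.00938). KLRK1, its neighbour on chromosome 6, which encodes the activating receptor NKG2D, was 0.0958 to 0.236 with sh-NC and 1.03, 0.964 and 0.207 with sh-B7-H3 (1) and overlapped. NCR1, or NKp46, which marks NK cells, was 0, 0 and 0.112 with sh-NC and 0.0696, 0.219 and 0 with sh-B7-H3 (1). These were 3 reads against 9, the groups overlapped, and the change of 0.45 did not pass (95% interval -0.76 to 1.66, limma adjusted p = 0.571).

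FPKM is per length, and a plain ratio between genes of 1 library does not depend on its scaling. Levels of a pair of genes could thus be set side by side. The ratios here and in the next paragraph are of (FPKM + 0.01), with FPKM not rescaled. Near the floor they therefore depend on this pseudocount and on the scaling. They are not exact quotients of the scaled FPKM given above. CD3E relative to PTPRC, the pan-leukocyte antigen CD45, was 0.0637, 0.112 and 0.0434 in the sh-NC tumors and 0.593, 0.385 and 0.356 in the sh-B7-H3 (1) tumors. CD4 relative to CD3E was 1.08, 0.918 and 1.75 with sh-NC and 0.216, 0.290 and 0.308 with sh-B7-H3 (1). FOXP3 relative to CD3E was 0.291 to 0.348 with sh-NC and 0.0608 to 0.130 with sh-B7-H3 (1). CD3E per PTPRC was higher with sh-B7-H3 (1) without overlap, and CD4 and FOXP3 per CD3E were lower without overlap. The CD3E means differed 10.2-fold, so a gene with a smaller fold was lower per CD3E even where its own level was higher. CD4 is also not confined to T cells. These ratios are thus no measure of the share of CD4 or regulatory cells among T cells.

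GZMB relative to CD3E was 1.19, 0.644 and 1.09 with sh-NC and 0.0795, 0.179 and 0.0293 with sh-B7-H3 (1). CD8A relative to CD3E was 0.220, 0.414 and 0.172 with sh-NC and 0.252, 0.464 and 0.285 with sh-B7-H3 (1), and PDCD1 relative to CD3E was 0.322, 0.254 and 0.936 and 0.145, 0.407 and 0.150. GZMB per CD3E was lower in all 3 sh-B7-H3 (1) tumors, while CD8A and PDCD1 per CD3E overlapped. The mean log2 difference, sh-B7-H3 (1) minus sh-NC, was 2.68 for CD3E/PTPRC, -2.17 for CD4/CD3E, -1.93 for FOXP3/CD3E and -3.66 for GZMB/CD3E. Each of these 4 gave p = 0.1 in an exact two-sided permutation test, the smallest that 3 against 3 allow, and 0.15 after Benjamini-Hochberg adjustment over 6 ratios, so none could pass 0.05. For CD8A/CD3E the difference was 0.36 (exact permutation p = 0.4, adjusted 0.4) and for PDCD1/CD3E -1.04 (exact permutation p = 0.3, adjusted 0.36). Relative to their size, these 2 differences moved most with 1 library left out, CD8A/CD3E between 0.093 and 0.73 (without sh-NC replicates 3 and 2) and PDCD1/CD3E between -1.53 (without sh-B7-H3 (1) replicate 2) and -0.47 (without sh-NC replicate 3).

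**Figure D4:**
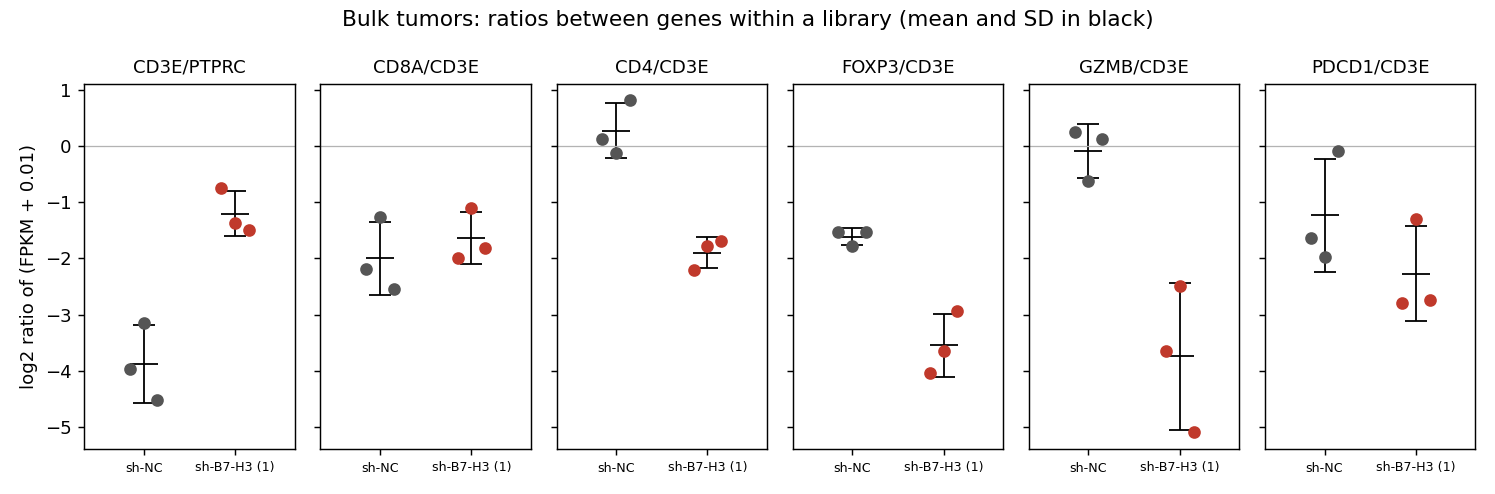
Log2 ratio of (FPKM + 0.01) for 6 gene pairs in the 3 sh-NC (grey) and 3 sh-B7-H3 (1) (red) bulk tumors, with the mean ± SD in black. CD3E/PTPRC is higher and CD4/CD3E, FOXP3/CD3E and GZMB/CD3E are lower in all 3 sh-B7-H3 (1) tumors, while CD8A/CD3E and PDCD1/CD3E overlap.

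Other cell types were measured beside these genes through marker sums. The 10 leukocyte markers summed to 211 to 298 scaled FPKM in the sh-NC tumors and to 189 to 399 in the sh-B7-H3 (1) tumors and overlapped, as did 10 macrophage markers (599 to 921 and 638 to 1155), 9 dendritic cell markers (13.4 to 17.8 and 15.2 to 34.7), 8 B cell markers (1.11 to 1.79 and 1.39 to 1.94) and 8 endothelial markers (29.8 to 51.6 and 31.0 to 47.9). Neutrophil markers were lower with sh-B7-H3 (1), at 2.21 to 3.67 against 5.81 to 12.0. Fibroblast markers were higher, at 303 to 685 against 116 to 195, as were epithelial and renal tumor markers (1066 to 1416 against 802 to 911) and 4 Y-linked genes (5.14 to 6.29 against 3.13 to 3.65). A sum follows its most abundant genes, and single markers differed. In the main test FBLN1 fell by 0.84 (limma adjusted p = 0.00811), while the other fibroblast markers tested had positive changes. KRT8, CDH1 and PAX8 were at -0.11 to -0.13, and the other epithelial markers were positive. Without the minimum, the neutrophil marker CSF3R was at 0.58 and the others tested were negative. Of the macrophage markers, CD68 rose by 0.65 in the main test (limma adjusted p = 0.0176), and no other was called. Of the dendritic cell markers, XCR1 rose by 1.25 without the minimum (limma adjusted p = 0.0460), and no other was called. Divided by the leukocyte sum of its library, 26 of the 38 genes had all 3 sh-B7-H3 (1) tumors above all sh-NC tumors, against 8.09% of all genes. Of these, 23 were among the 25 genes that did not overlap before the division, ZAP70, NKG7 and KLRK1 were added, and ICOS and HAVCR2 overlapped. The part of these other cell types in the levels of the 38 genes was not tested.

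A list of 89 further lymphocyte genes, set by name, showed the wider pathway, and 85 were found. In the main test 37 of these passed the minimum, 7 rose and 1 fell. Of the 7, IL2RA, TNFSF10 and IKZF2 reached the minimum only through the sh-B7-H3 (1) tumors. These had to differ to be tested, so the count of 7 is no support by itself. With no minimum and a pseudocount of 0.1, 84 were tested, 11 rose and 1 fell, 74 had positive changes, and the median was 0.71 against 0.05 over all genes. Over all genes 12.8% were called higher in the main test and 7.57% with no minimum. Several of the genes called in the main test were also measured in sorted tumor cells. IL18R1, a chain of the IL-18 receptor, rose by 2.70 in bulk (standard error 0.28, limma adjusted p = 0.00307), from 2.40 to 4.57 scaled FPKM with sh-NC to 19.8 to 37.1 with sh-B7-H3 (1), and was 32.9 to 66.1 in sorted sh-B7-H3 (1) cells. TNFRSF9, the costimulatory receptor 4-1BB, fell by 2.00 in bulk (standard error 0.23, limma adjusted p = 0.00373), from 24.2 to 44.2 to 6.73 to 9.75, and was 26.8 to 52.7 in sorted sh-NC cells. TNFSF10, the death ligand TRAIL, rose by 1.26 in bulk (limma adjusted p = 0.0155) and was 6.70 to 16.5 in sorted sh-B7-H3 (1) cells. TCF7 rose by 0.66 and IKZF2 by 0.60, and both were also measured in all sorted libraries, at 12.0 to 16.8 and 0.316 to 1.21.

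The other 3 called genes were low in sorted cells. IL2RA, the alpha chain of the IL-2 receptor on activated and regulatory T cells, was 0.355 to 0.642 with sh-NC and 1.18 to 4.37 with sh-B7-H3 (1) in bulk and rose by 1.23 (standard error 0.31, limma adjusted p = 0.0335). GZME, a granzyme, was 0.589 to 1.87 and 4.49 to 5.13 and rose by 1.51 (standard error 0.22, limma adjusted p = 0.00666). THY1, which T cells and fibroblasts share and which is 1 of the fibroblast markers, was 13.4 to 16.8 and 23.1 to 37.0 and rose by 0.90. Of the effector genes, CCL5, a chemokine of T and NK cells, was 6.22 to 7.91 and 23.9, 29.6 and 5.35 and did not pass the test (log2 change 1.12, limma adjusted p = 0.172). CST7, an inhibitor of granule proteases, was 0.313 to 0.361 and 0.786, 1.18 and 0.431. IFNG, the main cytokine of activated T and NK cells, rested on 0, 1 and 0 reads with sh-NC and 4, 2 and 0 with sh-B7-H3 (1).

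Sorted cells held little RNA of most of these genes. In the 8 sorted libraries other than sh-B7-H3 (2) replicate 1, 33 of the 38 genes stayed under 0.3 scaled FPKM in every library, and 18 were listed at 0 in at least 4 of the 8. The 5 exceptions were LCK (up to 1.80), CCL4 (up to 0.892), HAVCR2 (up to 0.759), TIGIT (up to 0.427) and SKAP1 (up to 0.337). The 38 genes summed to 1.58 to 2.29 in sorted sh-NC cells, to 2.59 to 3.47 in sorted sh-B7-H3 (1) cells, and to 5.49 and 4.28 in sh-B7-H3 (2) replicates 2 and 3, the highest of the 8. With no minimum, 24 of the 38 were higher in bulk than in sorted cells with sh-NC, against 10.1% of all genes, and 33 of 38 with sh-B7-H3 (1), against 17.3%. LCK did not pass that test, with a log2 difference of 0.34 with sh-NC (95% interval -0.68 to 1.35) and 0.60 with sh-B7-H3 (1) (95% interval -0.50 to 1.69). SKAP1 did not pass in either comparison.

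**Figure D5:**
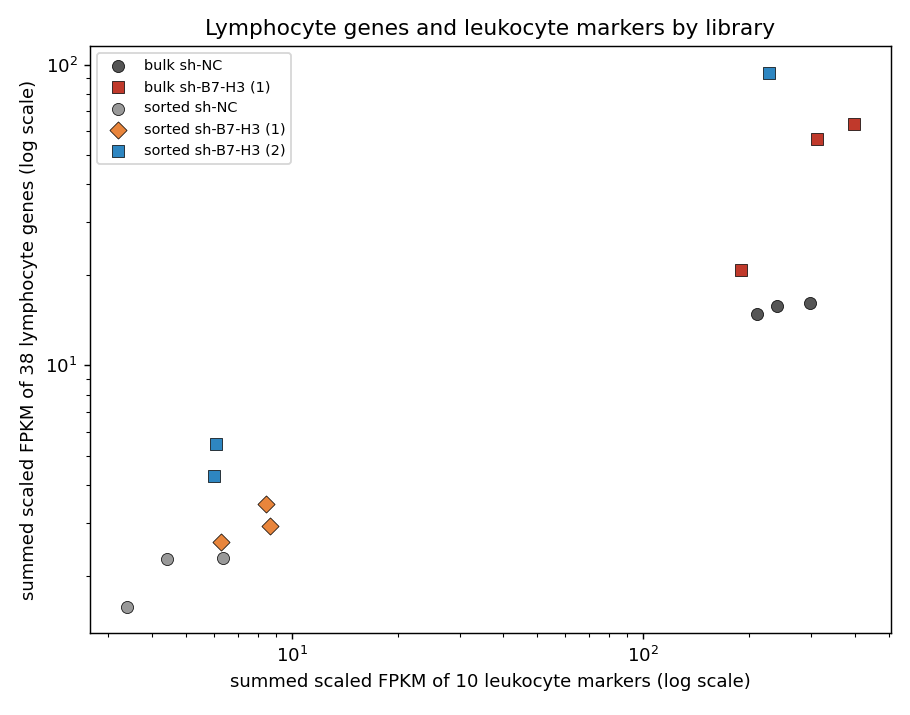
Summed scaled FPKM of the 38 lymphocyte genes (vertical, log scale) against that of 10 leukocyte markers (horizontal, log scale), 1 point per library, coloured by group. Sorted sh-B7-H3 (2) replicate 1, at 94.1, lies above all 6 bulk tumors on the vertical axis and within their range on the horizontal one, and the 3 bulk sh-B7-H3 (1) tumors lie above the 3 sh-NC tumors.

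Of the 38 genes, 0 passed the minimum for sorted sh-B7-H3 (1) against sh-NC, and without it 36 were tested, CD3E and GZMB rose and HAVCR2 fell, against 9.8% of all genes called in either direction. CD3E was listed at 0 in all 3 sorted sh-NC libraries and rested on 4, 7 and 3 reads with sh-B7-H3 (1), and GZMB on 0 reads against 1, 1 and 2. HAVCR2 was 0.753, 0.432 and 0.448 with sh-NC and 0.159, 0.146 and 0.127 with sh-B7-H3 (1), where it fell by 1.37 (standard error 0.23, limma adjusted p = 0.0165), whereas sh-B7-H3 (2) replicates 2 and 3 were at 0.754 and 0.759. CD3E and GZMB were thus a handful of reads, while HAVCR2 was lower in every sorted sh-B7-H3 (1) library. CD28 (limma adjusted p = 0.0704) and THEMIS (adjusted p = 0.0596) were also lower without overlap but did not pass. CD3G, CD8A, LCK, CD2 and NKG7 were higher without overlap and did not pass either.

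LCK was the 1 gene tested for sorted sh-B7-H3 (2) against sh-NC in the main test, where 11.7% of all genes were called higher. It was 0.474, 0.381 and 0.721 with sh-NC, 1.09, 0.926 and 0.896 with sh-B7-H3 (1) and 3.47, 1.80 and 1.31 with sh-B7-H3 (2), and the log2 change with sh-B7-H3 (2) was 1.01 (standard error 0.24, limma adjusted p = 0.0223). LCK reached the minimum only through the 3 sh-B7-H3 (2) libraries, so it had to differ to be tested, and this call is no support by itself. Replicates 2 and 3 of sh-B7-H3 (2) lay above all sh-NC libraries, but without the leukocyte-rich library LCK missed the minimum and was not tested. With sh-B7-H3 (1), LCK did not pass without the minimum (log2 change 0.81, limma adjusted p = 0.123).

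The leukocyte-rich library is a single sample with no replicate of its kind, and its values are a description. All 38 genes were higher there than in any of the 8 other sorted libraries, and 27 were higher than in any of the 6 bulk tumors. The library was set apart by its leukocyte markers, and the share of all genes that were highest there was not computed. These counts therefore cannot be read as particular to the 38 genes. GZMA was 6.13 scaled FPKM there, 10.5 times its highest bulk value, and CTLA4 was 2.39, 8.05 times. ICOS, NCR1, PRF1, CD28, GZMB and CCL4 were 3.18 to 4.26 times their highest bulk value. CD3E was 4.18 there, within the range of the bulk sh-B7-H3 (1) tumors, and CD8A was 2.24. Its 8 B cell markers summed to 13.6, against at most 1.94 in bulk, and its leukocyte markers to 228. Compared with the bulk sh-B7-H3 (1) tumors, it was within their range for CD3E and above it for GZMA, GZMB and PRF1, while GZMK, at 1.25, was below their highest value and GZME, at 0.622, was below all 3.

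Whether the difference between sh-B7-H3 (1) and sh-NC was larger or smaller in bulk tumors than in sorted cells was tested as an interaction, in which 8 of the 38 genes passed the minimum and 0 were called by limma, against 0.464% of 12071 genes. At an unadjusted p below 0.05 there were 5 of the 8, against 14.6% of all genes. Of these, CD3E, CD3G and KLRD1 reached the minimum only through the bulk sh-B7-H3 (1) tumors. These had to differ to be tested, so the count of 5 is no support by itself. The difference of the effects, bulk minus sorted, was 1.60 for CD3E (standard error 0.36, limma adjusted p = 0.0910), 1.60 for CD3G (standard error 0.33, adjusted p = 0.0747) and 0.95 for KLRD1 (standard error 0.18, adjusted p = 0.0539). For HAVCR2, which was higher in all bulk and lower in all sorted sh-B7-H3 (1) libraries, it was 0.86 (standard error 0.19, adjusted p = 0.0956).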

How the data were processed

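RNA was isolated from bulk 105K tumors and from sorted tumor cells with RNeasy kits and sequenced single-end, and the kit named for library preparation is not the same in the study's methods as in the labels. The authors deposited one FPKM value per gene and library. The unit was recognised from the values, and the aligner and counter are not given in the sources used here; the submitters' processing notes name the build mm10. Of 24917 entries, 26 with symbols turned into dates were left out. The smaller deposited table of 1000 genes was not used.

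Because MIR6236 took a changing share of each library, FPKM were rescaled by median ratios, computed from the 9872 genes that reached 1 FPKM in all libraries. Tests used limma 3.58.1 under R 4.3.3, its prior variance following a mean trend, on log2(scaled FPKM + 1), for genes reaching 1 scaled FPKM in 3 libraries, with Benjamini-Hochberg adjustment over all genes tested. The script was tested on simulated data. Whole reads came out for 22 of 38 genes within a tolerance of 0.02, with no total depth. The genes and lists were chosen with earlier results of these data known. By the naming rule, genes past the threshold in bulk and CD3E, CD4, CD8A, FOXP3, PDCD1, GZMB and PRF1 are given by library, with the 8 largest called changes of the further lists, IFNG, CCL5 and CST7; other genes given by library were chosen after their values were seen. Groups came from the titles. Alternatives are in the closing section.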

Additional observations from a re-analysis of the deposited data

Results flagged for a closer look

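HAVCR2, which encodes TIM-3, was higher with sh-B7-H3 (1) in every bulk tumor and lower in every sorted library than with sh-NC, opposite directions in the 2 materials. The difference of the log2 changes, bulk minus sorted, was 0.86 (95% interval 0.43 to 1.28), which did not pass the interaction test (limma adjusted p = 0.0956). It was 1.95 with no minimum and a pseudocount of 0.1 (adjusted p = 0.0634).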

How the results depend on the processing

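Most of the 38 genes were under 1 scaled FPKM, so the minimum decided how many were tested. With the minimum, 3 genes changed between the bulk tumors of both shRNAs, 2 in bulk against sorted sh-NC, 6 in bulk against sorted sh-B7-H3 (1), 0 in sorted sh-B7-H3 (1), 1 in sorted sh-B7-H3 (2) and 0 in the interaction. With no filter these were 7, 19, 24, 2, 0 and 2, and with no filter and a pseudocount of 0.1, an alternative added once the data had been seen, 8, 24, 33, 3, 1 and 0. Of all genes tested, 21.3%, 16.9%, 38.2%, 13.4%, 19.1% and 0.464% changed with the minimum, in the same order. With no filter 10.7%, 13.4%, 25.1%, 9.86%, 12.3% and 0.429% did. With the pseudocount of 0.1 as well, the shares were 11.4%, 14.3%, 26.8%, 9.8%, 12.6% and 0.207%. The 2 and 6 bulk-against-sorted genes called with the minimum reached it only through the bulk tumors, so they had to differ to be tested. FPKM as deposited gave 2 interaction calls (CD3E and CD3G), where 1.06% of all genes changed. Both again reached the minimum only through the bulk sh-B7-H3 (1) tumors, so the calls are no support by themselves. Quantile normalization gave 0 for sorted sh-B7-H3 (2), where 20.2% of all genes changed.

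Leaving out 1 library moved the bulk count between 0 and 3. It was 0 without sh-B7-H3 (1) replicate 1 or replicate 2, where CD3E, CD3G and KLRD1 no longer reached the minimum, and 1 without sh-NC replicate 3, where CD3E (adjusted p = 0.0616) and CD3G (adjusted p = 0.0508) missed the threshold. Without sh-B7-H3 (1) replicate 3, CD3E, CD3G and KLRD1 again missed the minimum, and 4 genes were tested. The 3 that passed were other genes, LAG3 (adjusted p = 0.0322), HAVCR2 (adjusted p = 0.0220) and CCL4 (0.49, adjusted p = 0.0459). In that fit 14.3% of all genes changed. The 3 calls of the main test were thus lost without any 1 of the sh-B7-H3 (1) tumors. For bulk against sorted sh-B7-H3 (1) the count ranged from 0 (without bulk sh-B7-H3 (1) replicate 1 or replicate 2, with 0 genes tested) and 1 (without replicate 3, with 1 tested) to 6, and for bulk against sorted sh-NC it was 0 without any 1 of the bulk sh-NC libraries, with 0 tested. For sorted sh-B7-H3 (2) it ranged from 0 (without sh-NC replicate 2, or with 0 tested without any 1 of the sh-B7-H3 (2) libraries) to 1, and for the interaction from 0 to 1 (KLRD1 without bulk sh-NC replicate 2, HAVCR2 without bulk sh-B7-H3 (1) replicate 3). The number of genes above in all sh-B7-H3 (1) tumors ranged from 25 to 36, where 24.2% to 29.0% of all genes did so, and was 26 for FPKM as deposited, against 11.1%. CCL4 changed sign, to -0.056 with quantile normalization and as low as -0.19 without a library, and the CD8A/CD3E difference turned to -0.34 with a pseudocount of 0.1 FPKM. KLRD1 missed the threshold with all groups in 1 fit (adjusted p = 0.0578). Over all genes, the bulk count of 2520 was 961 with FPKM as deposited and 546 to 3793 with 1 library left out. Causes were not tested.

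Same-numbered bulk libraries did not deviate together more than others (r from -0.41 to 0.38, against -0.54 to 0.54), so the numbers were not taken as a pairing. With 3 libraries per group this check cannot exclude a pairing. With the replicate block, 3 of the 38 genes changed in bulk (1413 over all genes), and 0 in sorted sh-B7-H3 (2), where LCK had an adjusted p of 0.0530. Reads limit the lowest genes. Of the genes with whole reads recovered, CD5, TBX21, GZMA, GZMK, PRF1, NCR1 and IFNG rested on 10 or fewer in the 3 bulk sh-NC libraries together. No reads were recovered for CTLA4, FASL and EOMES, whose bulk sh-NC means were as low, at 0.023, 0.016 and 0.034 scaled FPKM.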
